A study of Mus musculus with 8 samples.

Results

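The 44 genes described here encode the non-collagen part of the muscle extracellular matrix, together with the enzymes that crosslink it. They were taken by a list of names from the 15433 genes listed in an RNA-Seq table of gastrocnemius (GST) muscle, and all 44 were found there. RNA was measured in 4 STIM1+/D84G mice and 4 WT mice, all female and 6 months old. STIM1+/D84G mice carry a heterozygous germline point mutation in the Ca2+-binding EF hand of STIM1, a Ca2+ sensor of the sarcoplasmic reticulum, and are studied as a gain-of-function model of inherited myopathy. The mutation is present in all cells of the body, not in muscle fibers alone. WT controls were C57BL/6 mice matched for age and sex, and each library came from 1 mouse. The comparison asks how carrying the mutant allele changes the RNA of a whole muscle, in which fewer cells of a type and less RNA per cell cannot be told apart.

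Muscle fibers are surrounded by a basement membrane and by connective tissue that carries force to the tendon. Collagens give this tissue its bulk, and the proteins described here set how it is built. Small leucine-rich proteoglycans (SLRPs) coat collagen fibrils and control their width and spacing, fibronectin and the matricellular glycoproteins tie cells to the matrix and signal to them, fibrillins and their partners build elastic fibers, and lysyl oxidases crosslink collagen and elastin. In muscle most of them are made by fibroblast-like interstitial cells and tendon cells, with contributions from fibers and vessels.

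Promoters are printed for 4 of the members called higher: Postn, with the largest fold change, Thbs4, which was high per length in both genotypes, Cyr61, whose call depended on the setting, and Ogn, a proteoglycan that lies beside another member. Each is the RefSeq window of the 250 bases before the annotated start in the GRCm38.p6 build (for Postn, which has 2 such windows, the one with TATAAA), written 5′ to 3′ in the direction of transcription. Capitals mark 4 motifs searched on both strands. GGAATG is the element of TEAD factors, the DNA-binding partners of YAP, TGANTCA is that of AP-1, and CAGAC that of SMAD factors. TATAAA is the core of a TATA box.
Postn, chr3:54360857-54361106, plus strand: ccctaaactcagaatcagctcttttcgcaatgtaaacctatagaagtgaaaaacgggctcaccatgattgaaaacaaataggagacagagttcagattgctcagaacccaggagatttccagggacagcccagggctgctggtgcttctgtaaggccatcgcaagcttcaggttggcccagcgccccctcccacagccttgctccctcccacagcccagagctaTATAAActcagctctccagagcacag
Thbs4, chr13:92794819-92795068, minus strand: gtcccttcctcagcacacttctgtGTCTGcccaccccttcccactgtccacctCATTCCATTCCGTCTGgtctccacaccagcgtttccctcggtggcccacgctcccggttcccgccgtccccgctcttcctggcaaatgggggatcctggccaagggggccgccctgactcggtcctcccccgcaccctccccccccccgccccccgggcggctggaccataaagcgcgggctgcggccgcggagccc
Cyr61, chr3:145649986-145650235, minus strand: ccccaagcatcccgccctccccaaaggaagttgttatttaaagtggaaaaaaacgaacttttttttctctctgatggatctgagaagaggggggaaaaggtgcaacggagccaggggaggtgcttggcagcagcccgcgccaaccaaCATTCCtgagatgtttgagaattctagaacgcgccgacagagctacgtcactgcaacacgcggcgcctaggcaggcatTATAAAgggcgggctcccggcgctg
Ogn, chr13:49607765-49608014, plus strand: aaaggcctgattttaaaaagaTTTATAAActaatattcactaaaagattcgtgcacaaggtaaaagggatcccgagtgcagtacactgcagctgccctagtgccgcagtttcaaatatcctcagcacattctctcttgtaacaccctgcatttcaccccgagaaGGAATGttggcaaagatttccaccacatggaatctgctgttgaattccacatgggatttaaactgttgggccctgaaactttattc
The Postn window held TATAAA at 26 to 21 bases before the start, and the Cyr61 window at 25 to 20 bases before it. In the Thbs4 window the TEAD letters stood at 197 to 192 and 192 to 187 bases before the start and shared 1 base, between SMAD letters at 226 to 222 and 186 to 182 bases. The Cyr61 window held the TEAD letters at 103 to 98 bases, and the Ogn window at 86 to 81 bases. TATAAA, on either strand, stood far from the start in the Ogn window, at 229 to 224 and 227 to 222 bases.

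RefSeq windows were found for 27 of the 44 members, 34 windows in all. As 7 members had more than 1 window, and windows of 1 gene can overlap and hold the same site (as in Tnc and Fbln1), motifs were counted by gene, present where any window of the gene held the letters. The TEAD letters were present in 7 of the 27 members (25.9%), against 14.4% of all 27025 genes with a RefSeq window. These genes, called all genes in this paragraph, were not limited to those measured in muscle. TATAAA was present in 8 members (29.6%), against 14.3%. It stood at 26 to 21 bases before the start in Postn, 25 to 20 in Cyr61 and 27 to 22 in Ecm1. In the other members with these letters it stood farther away, from 121 bases (Thbs2 and Tnc) to 229 bases (Ogn). The letters GGGCGG, a GC box, were present in 17 members (63.0%), against 35.4% of all genes, and the SMAD letters in 15 (55.6%), against 45.8%. The AP-1 letters (7.41% of members against 7.82% of all genes), CCAAT (29.6% against 37.5%) and CCACG, a piece of the endoplasmic reticulum stress element (22.2% against 31.0%), had shares below those of all genes. These shares describe letters in short windows and were not tested, and the motifs were counted separately where they overlapped.

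Libraries held 27481177 to 35018732 reads in listed genes in STIM1+/D84G mice, against 28698738 to 33661535 in WT mice. The muscle label fitted the defining transcripts, as the skeletal actin Acta1 counted 882102 ± 36266 in STIM1+/D84G muscle and 1211066 ± 46115 in WT muscle (SD, n = 4 each), and the creatine kinase Ckm 538809 ± 44629 in STIM1+/D84G muscle and 851832 ± 59776 in WT muscle. Stim1, whose allele carries a point mutation and not a deletion, counted 5413 ± 264 in STIM1+/D84G muscle and 7293 ± 167 in WT muscle (SD, n = 4 each), a log2 fold change of -0.43 ± 0.04 (SE, limma, adjusted p = 1.39e-05). Column names carry a number that WT mice 1 and 2 share with STIM1+/D84G mouse 1, and the other 5 libraries share another; what it stands for is not stated.

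Values are normalized counts, in which the reads of a gene were divided by the size factor of the library, so they can be compared between mice but not between genes of different length. Fold changes are STIM1+/D84G over WT on the log2 scale of the normalized count plus 0.1, with the SE of the limma fit, and a gene is called higher or lower where its Benjamini-Hochberg adjusted p over all 15433 genes is under 0.05.

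Transcripts of the matrix genes were higher in STIM1+/D84G muscle in 36 of 44 cases and lower in 0, by limma. The called share over all genes was 25.0% higher and 24.4% lower. No member was lower at an unadjusted p under 0.05 either (0 of 44), and edgeR and DESeq2 on the recovered reads gave 37 and 36 higher and 0 lower. The median log2 fold change of the 44 was 0.65, with a range of -0.15 to 1.66, against a median of 0.01 over all genes. In 29 members every STIM1+/D84G mouse lay above every WT mouse, where 23.0% of all genes did so, and another 7 were called although their groups overlapped (Comp, Ctgf, Fbln1, Cyr61, Prelp, Sparc and Nid2). STIM1+/D84G mean counts were more than 2 times the WT mean for 8 genes, 1.5 to 2 times for 17, 1 to 1.5 times for 18, and below it for 1, Vtn. With libraries scaled to the total of all listed genes, the median of all genes was 0.36 and 61.4% of genes were called higher and 4.9% lower, while 43 of the 44 members were called higher with a median of 1.0.

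**Figure D1:**
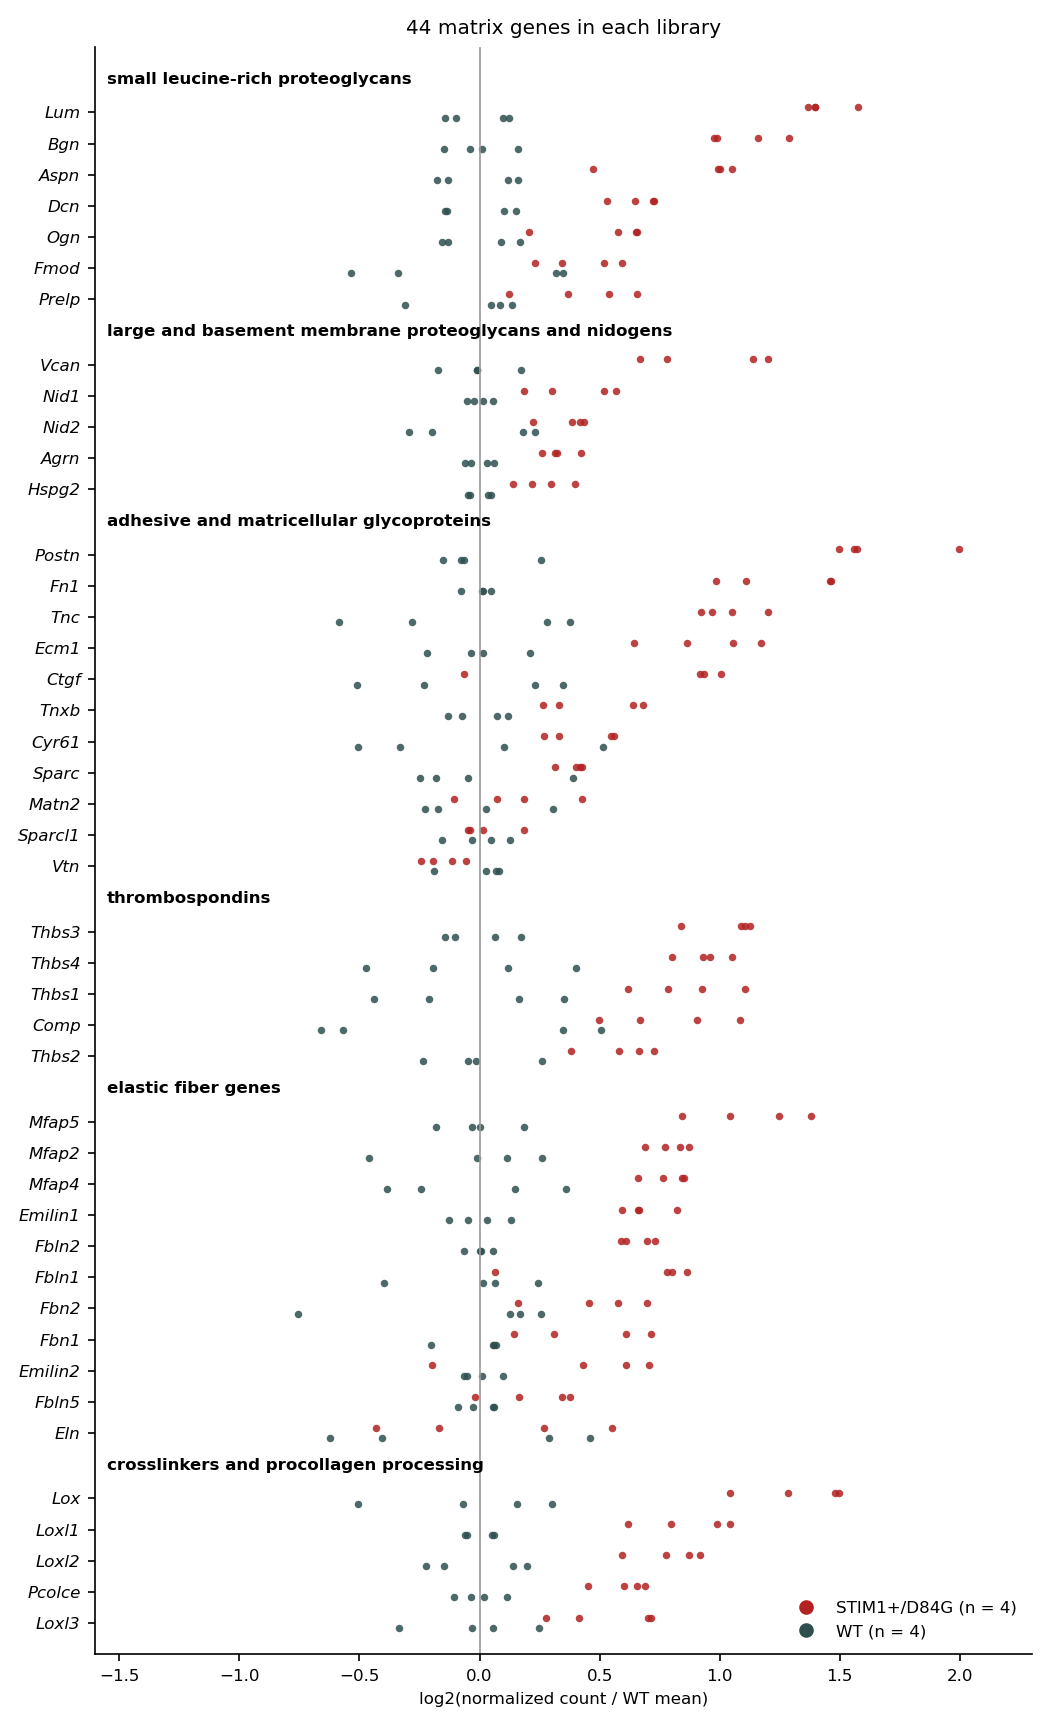
Log2 of the normalized count of each of the 44 matrix genes over its WT mean, 1 point per mouse, by role and, within a role, by fold change. The STIM1+/D84G points lie apart from the WT points for 29 genes, and the groups overlap for the others, among them Eln, Sparcl1 and Matn2.

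Periostin (Postn), a matricellular protein of remodeling connective tissue, had the largest fold change of the 44. It counted 1037, 1083, 1095 and 1469.6 in the STIM1+/D84G mice, against 439, 331, 352 and 349 in the WT mice. Every STIM1+/D84G value was more than 2 times every WT value, and STIM1+/D84G mouse 4 stood above its group. The log2 fold change was 1.66 ± 0.12 (SE, limma, adjusted p = 1.44e-06). Postn lies on chromosome 3 at 54361109 to 54391037 in mm10.

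Fibronectin (Fn1), the adhesive glycoprotein on which cells assemble a provisional matrix, stood apart as clearly. Its counts were 8048, 8773, 11209.6 and 11174 in STIM1+/D84G muscle, against 4194, 3851, 4107 and 4094 in WT muscle. WT mice stayed close together (SD 147 on a mean of 4062) while STIM1+/D84G mice formed a lower and a higher pair (SD 1633 on a mean of 9801), all above the WT mice. The log2 fold change was 1.26 ± 0.10 (limma, adjusted p = 2.84e-06).

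The tenascins are large oligomeric glycoproteins, tenascin C of tendon, development and repair, and tenascin X of dermis, tendon and muscle sheaths. Tnc counted 546, 563, 662 and 596 in STIM1+/D84G mice, against 349.9, 237, 192 and 374 in WT mice, with a log2 fold change of 1.09 ± 0.18 (limma, adjusted p = 5.51e-04). WT mice 1 and 4 were the high ones. Tnxb counted 4476, 4681, 5967 and 5795 in STIM1+/D84G mice, against 3400.5, 3546, 3913 and 4039 in WT mice. It rose less, by 0.48 ± 0.10 (limma, adjusted p = 0.00158), and neither tenascin overlapped between the genotypes.

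Ctgf and Cyr61 encode CCN2 and CCN1, matricellular proteins best known as fast transcriptional targets of YAP and TEAD in stretched cells. Ctgf counted 1559, 1541, 1636 and 779.7 in STIM1+/D84G muscle, against 1039, 957, 573 and 695 in WT muscle. STIM1+/D84G mouse 4 lay inside the WT range and the other STIM1+/D84G mice above it. The log2 fold change was 0.74 ± 0.24 (limma, adjusted p = 0.0271). Ctgf was not called without STIM1+/D84G mouse 1, 2 or 3 or WT mouse 3 or 4 (limma, adjusted p = 0.0665 to 0.0783, and 0.00144 to 0.0783 over all alternatives). Cyr61 counted 883, 876, 753 and 721 in STIM1+/D84G mice, against 855, 642, 476 and 422 in WT mice, where WT mouse 1 stood among the mutants. Its fold change of 0.48 ± 0.18 was just inside the threshold (limma, adjusted p = 0.0488, range 3.53e-04 to 0.142 over the alternatives), and Cyr61 was not called when any single mouse other than WT mouse 1 was left out.

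Sparc and its relative Sparcl1 (hevin) are collagen-binding matricellular proteins. Sparc counted 7876, 8513, 8369 and 8474 in STIM1+/D84G mice, against 8305, 5585, 5344 and 6129.8 in WT mice. WT mouse 1 reached the STIM1+/D84G level and the other WT mice lay below it, at a log2 fold change of 0.41 ± 0.11 (limma, adjusted p = 0.0109). Sparcl1 counted 6470.4, 5532, 5757 and 5502 in STIM1+/D84G mice, against 5889.7, 6214, 5569 and 5103 in WT mice. These ranges lay on top of each other, with a log2 fold change of 0.03 ± 0.07 (limma, adjusted p = 0.732).

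Of the other adhesive glycoproteins, extracellular matrix protein 1 (Ecm1) counted 833 ± 131 in STIM1+/D84G muscle and 432 ± 53.0 in WT muscle (SD, n = 4 each) and rose by 0.94 ± 0.12 (limma, adjusted p = 6.34e-05). Matrilin 2 (Matn2), which bridges matrix filaments, had a log2 fold change of 0.16 ± 0.14 and did not pass (limma, adjusted p = 0.346). Vitronectin (Vtn), a plasma glycoprotein made mostly in liver, was the 1 member with a negative value, -0.15 ± 0.07 (limma, adjusted p = 0.124), at 356, 325, 370.2 and 337 in STIM1+/D84G mice, against 392, 404, 407 and 338 in WT mice. WT mouse 4 alone sat within the STIM1+/D84G range, and Vtn was called lower without it (-0.21, limma, adjusted p = 0.0226). In all, 8 of the 11 adhesive and matricellular genes rose, with a median of 0.48.

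**Figure D2:**
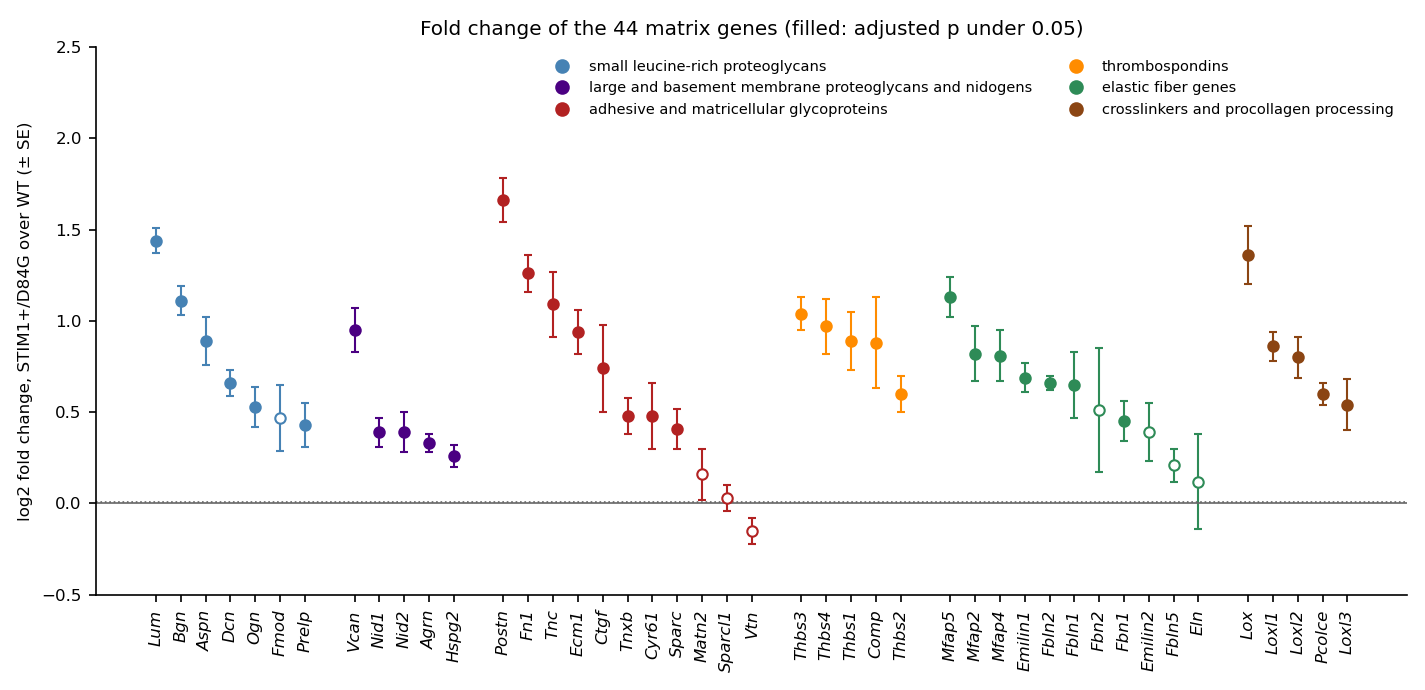
Log2 fold change of STIM1+/D84G over WT for the 44 matrix genes with the SE of the limma fit, colored by role, with filled points where the adjusted p is under 0.05 and open points for the 8 genes that did not pass. The dotted line is the median of all genes, 0.01; Postn is the highest at 1.66 and Vtn the lowest at -0.15.

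Thrombospondins bind cells, Ca2+ and other matrix proteins, and Thbs4 and Comp (also called thrombospondin 5), of the pentameric branch, are abundant in tendon and at its junction with muscle. All 5 rose, with a median of 0.89. Thbs4 counted 6702, 7321, 7959.9 and 7472 in STIM1+/D84G mice, against 4176, 2771, 3361 and 5079 in WT mice. The groups stood apart although WT mice spread more (SD 519 in STIM1+/D84G and 1003 in WT), and the log2 fold change was 0.97 ± 0.15 (limma, adjusted p = 3.03e-04). Thbs3 counted 342, 406, 417 and 411 in STIM1+/D84G mice, against 173, 178, 199.5 and 215 in WT mice, a log2 fold change of 1.04 ± 0.09 (limma, adjusted p = 6.07e-06). The span of Thbs3 overlaps that of Mtx1 on the other strand, and whether reads were counted by strand is not given in the sources used here.

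Comp had the widest spread between WT mice for its mean of the 44 genes. It counted 820.4, 1095, 967 and 729 in STIM1+/D84G mice, against 733, 348, 327 and 657 in WT mice, so that WT mouse 1 lay just above the lowest STIM1+/D84G mouse. The log2 fold change was 0.88 ± 0.25 (limma, adjusted p = 0.0125). Thbs1 rose by 0.89 ± 0.16 (limma, adjusted p = 7.95e-04), at 1079, 1190.1, 1348 and 961 in STIM1+/D84G mice, against 798, 541, 462 and 702 in WT mice. Thbs2, which like Thbs1 is a trimer that restrains vessel growth, rose by 0.60 ± 0.10 (limma, adjusted p = 5.91e-04).

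WT mice 1 and 4 were the high WT mice not only for Comp, Thbs4, Thbs1 and Tnc but also for the SLRP fibromodulin (Fmod) and the elastic fiber gene Mfap4. The pattern was not confined to these genes, as Dcn, Lox and Loxl2 also showed it. Of the 44 genes, WT mouse 1 was the highest WT mouse for 22 and WT mouse 4 for 17. The tendon marker Kera, a proteoglycan, counted 211, 205, 193 and 219 in STIM1+/D84G mice, against 282, 143, 172 and 249 in WT mice, and the tendon transcription factor Mkx 66.3, 55.6, 78.1 and 47.6 in STIM1+/D84G mice, against 58.3, 26.5, 26.0 and 53.2 in WT mice. WT mice 1 and 4 were again the high ones, but not for the tendon factor Scx, at 197, 187, 150.4 and 149.8 in STIM1+/D84G mice, against 144, 169, 170.2 and 130.0 in WT mice. Among 7 tendon markers the test called 4 higher (Fibin, Egr1, Chodl and Tnmd) and 0 lower, beside 25.0% of all genes higher. Scx, Mkx and Kera did not pass. Summed counts of the 7 were 2248 to 2299 in STIM1+/D84G mice, against 1236 to 1613 in WT mice. Much of that gap came from Egr1, which counted 694 ± 43.6 in STIM1+/D84G muscle and 221 ± 121 in WT muscle (SD, n = 4 each). The part of tendon in the samples was not tested.

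SLRPs rose in 6 of 7 cases, with a median of 0.66. Lumican (Lum), which regulates the width of collagen fibrils, counted 2364, 2370.0, 2317 and 2683 in STIM1+/D84G mice, against 979.9, 961, 813 and 841 in WT mice. Both groups were tight and far apart, and the log2 fold change was 1.44 ± 0.07 (limma, adjusted p = 1.67e-07). Biglycan (Bgn), a fibril proteoglycan that can also signal to macrophages once released, counted 3154, 3183, 3918 and 3579 in STIM1+/D84G mice, against 1789, 1446, 1560.3 and 1612 in WT mice, with a log2 fold change of 1.11 ± 0.08 (limma, adjusted p = 1.72e-06). The groups did not overlap for either gene.

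Decorin (Dcn), the main fibril proteoglycan of muscle and a binder of TGF-β, rose less. It counted 15277, 16572, 17515 and 17437 in STIM1+/D84G mice, against 11347, 9634, 9575 and 11764 in WT mice, a log2 fold change of 0.66 ± 0.07 (limma, adjusted p = 3.41e-05). Asporin (Aspn) counted 560.1, 804, 809 and 837 in STIM1+/D84G mice, against 357, 369, 438 and 452 in WT mice, and rose by 0.89 ± 0.13 (limma, adjusted p = 1.89e-04), with STIM1+/D84G mouse 1 below its group but above all WT mice. Osteoglycin (Ogn) rose by 0.53 ± 0.11 (limma, adjusted p = 0.00170), at 1364, 1862, 1765 and 1864 in STIM1+/D84G mice, against 1261, 1063, 1079.9 and 1330.3 in WT mice.

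Fibromodulin, which binds collagen and guides lysyl oxidase to it, did not pass. Its counts were 6533, 7769, 7383 and 6043 in STIM1+/D84G mice, against 6548, 3560.3, 4075 and 6427 in WT mice, so WT mice 1 and 4 lay at the STIM1+/D84G level and WT mice 2 and 3 far below it. The log2 fold change was 0.47 ± 0.18 (limma, adjusted p = 0.0503, range 0.00225 to 0.133 over the alternatives), and Fmod passed without WT mouse 1 (0.61, limma, adjusted p = 0.0158) or WT mouse 4 (0.60, limma, adjusted p = 0.0195). Prelp, which anchors basement membranes to the tissue below, counted 1687, 2249, 2437 and 2002 in STIM1+/D84G mice, against 1602, 1249, 1703 and 1641 in WT mice, where the highest WT mouse exceeded the lowest STIM1+/D84G mouse by a small margin (log2 fold change 0.43 ± 0.12, limma, adjusted p = 0.0113).

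Several SLRP genes are neighbors in the mm10 genome. Dcn (97479609 to 97518143) and Lum (97565128 to 97572703) lie on chromosome 10, Aspn (49544443 to 49567565) and Ogn (49608046 to 49624501) on chromosome 13, and Prelp (133910304 to 133921414) and Fmod (134037254 to 134048277) on chromosome 1. The log2 fold changes were 1.44 for Lum and 0.66 for Dcn, 0.89 for Aspn and 0.53 for Ogn, and 0.43 for Prelp and 0.47 for Fmod. Lum and Dcn are compared as a ratio within each library further on, and the differences within the other pairs were not tested.

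Among larger proteoglycans, versican (Vcan), a hyaluronan-binding proteoglycan of loose and healing matrix, had the largest change. It counted 424, 458, 613 and 587 in STIM1+/D84G mice, against 237, 265, 265 and 301 in WT mice, a log2 fold change of 0.95 ± 0.12 (limma, adjusted p = 7.99e-05). All 5 genes of the group passed with a median of 0.39, and the 4 basement membrane members rose by less than Vcan. Nidogen 1 (Nid1) and nidogen 2 (Nid2), which link laminin to collagen IV, each rose by 0.39, with an SE of 0.08 for Nid1 (limma, adjusted p = 0.00141) and 0.11 for Nid2 (limma, adjusted p = 0.0157). Perlecan (Hspg2) counted 12948, 12249.8, 14651 and 13682 in STIM1+/D84G mice, against 10772, 11400.4, 10823 and 11504 in WT mice. That small gap of 0.26 ± 0.06 passed (limma, adjusted p = 0.00237). Agrin (Agrn), the nerve-derived organizer of acetylcholine receptors that muscle also makes, counted 833, 744, 778 and 773 in STIM1+/D84G mice, against 648, 635, 607 and 597 in WT mice, and rose by 0.33 ± 0.05 (limma, adjusted p = 3.13e-04).

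The elastic fiber genes were mixed, with 7 of 11 higher, 0 lower and a median of 0.65. Mfap5 and Mfap2 encode the small glycoproteins MAGP2 and MAGP1 that sit on fibrillin microfibrils. Mfap5 counted 737, 846, 974 and 1069 in STIM1+/D84G mice, against 402, 363, 412 and 467 in WT mice (log2 fold change 1.13 ± 0.11, limma, adjusted p = 1.33e-05). Mfap2 counted 91.3, 97.9, 95.4 and 86.3 in STIM1+/D84G mice, against 64.0, 57.9, 53.1 and 38.9 in WT mice (0.82 ± 0.15, limma, adjusted p = 0.00121). Neither overlapped, and Mfap4, an integrin ligand of elastic fibers, rose by 0.81 ± 0.14 (limma, adjusted p = 7.80e-04).

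Fibulin 2 (Fbln2), which binds fibrillin and basement membranes, had the smallest SE of the 44 fold changes. It counted 3222, 3176, 3426 and 3504 in STIM1+/D84G mice, against 2115, 2018, 2121 and 2198 in WT mice, a log2 fold change of 0.66 ± 0.04 (limma, adjusted p = 1.26e-06). Emilin1, a glycoprotein at the interface of elastin and microfibrils that restrains TGF-β processing, rose by 0.69 ± 0.08 (limma, adjusted p = 2.70e-05). Fibulin 1 (Fbln1) counted 316, 526, 549 and 518 in STIM1+/D84G mice, against 305, 229, 316 and 357 in WT mice. STIM1+/D84G mouse 1 was among the WT mice here and the log2 fold change was 0.65 ± 0.18 (limma, adjusted p = 0.0115).

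Fibrillin 1 (Fbn1), the main component of adult microfibrils, counted 3080.0, 3453, 4573 and 4250.1 in STIM1+/D84G mice, against 2921, 2899, 2424 and 2909 in WT mice, and rose by 0.45 ± 0.11 (limma, adjusted p = 0.00734). Fibrillin 2 (Fbn2), its fetal relative, was near the limit of detection with 10.8 ± 1.64 in STIM1+/D84G muscle and 7.72 ± 2.12 in WT muscle (SD, n = 4 each) and was the 1 member with a mean under 10 over all libraries. Its log2 fold change of 0.51 ± 0.34 did not pass (limma, adjusted p = 0.231).

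Elastin (Eln) itself did not pass. It counted 449, 539, 888 and 730.4 in STIM1+/D84G mice, against 457, 394, 741 and 833 in WT mice (log2 fold change 0.12 ± 0.26, limma, adjusted p = 0.718). Low and high values were found in both genotypes, and WT mice 1 and 2 and STIM1+/D84G mouse 1, the 3 libraries with the same column number, were all low. Among the other 5 libraries the log2 difference was -0.16. Emilin2 and Fbln5 also missed the threshold, at 0.39 ± 0.16 (limma, adjusted p = 0.0663) and 0.21 ± 0.09 (limma, adjusted p = 0.0581). Emilin2 counted 275, 425, 481 and 513 in STIM1+/D84G mice, against 301, 337, 304 and 317 in WT mice. STIM1+/D84G mouse 1 was below all WT mice and the other STIM1+/D84G mice above them, and with the replicate number as a block Emilin2 passed (limma, adjusted p = 0.0328), as it did without that mouse (0.58, limma, adjusted p = 2.10e-04). Fbln5 also passed without STIM1+/D84G mouse 1 (0.29, limma, adjusted p = 0.00660).

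All 5 crosslinking and procollagen processing genes rose without overlap between the genotypes, with a median of 0.80. Lysyl oxidase (Lox), the enzyme that starts crosslinks in collagen and elastin, counted 480.4, 568, 649 and 658 in STIM1+/D84G mice, against 259.6, 164, 222 and 287 in WT mice. The log2 fold change was 1.36 ± 0.16 (limma, adjusted p = 4.70e-05). Loxl1, the family member needed for elastic fibers, counted 915, 1037, 1184 and 1227 in STIM1+/D84G mice, against 572, 575, 618 and 621 in WT mice. WT values were nearly equal, and Loxl1 rose by 0.86 ± 0.08 (limma, adjusted p = 1.36e-05).

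Loxl2, which crosslinks basement membrane collagen IV, rose by 0.80 ± 0.11 (limma, adjusted p = 1.02e-04), with 522, 459.9, 576 and 558 in STIM1+/D84G mice, against 349.9, 275, 261 and 336 in WT mice. Loxl3 counted 149, 164, 202 and 200.0 in STIM1+/D84G mice, against 146, 97.6, 120.4 and 128 in WT mice, and its margin was narrow, as the lowest STIM1+/D84G mouse and the highest WT mouse were nearly level (0.54 ± 0.14, limma, adjusted p = 0.00802). Pcolce, which enhances removal of the C-propeptide of procollagen, counted 1332, 1478, 1533 and 1572 in STIM1+/D84G mice, against 1054, 951, 904 and 988 in WT mice, and rose by 0.60 ± 0.06 (limma, adjusted p = 2.03e-05). The span of Pcolce overlaps that of Fbxo24 on its own strand over 1282 bases. Whether exons overlap there was not checked, and reads in shared exons could not be told apart.

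To see whether related genes changed in proportion, 19 ratios between members of a family were taken within each library. A ratio within a library does not depend on the size factor, and its difference between genotypes does not depend on gene length. In 6 pairs the 4 STIM1+/D84G libraries did not overlap with the 4 WT libraries, which gives the smallest two-sided p that an exact permutation test of 4 against 4 can reach, 0.029 over 70 assignments. After adjustment over the 19 pairs these had an adjusted p of 0.090, so 0 of 19 passed at 0.05 and 6 of 19 had an unadjusted p under it. The 6 pairs are not separate results, as Lox, Lum and Dcn each recur among them. Lack of overlap was also common among all genes taken singly. Every STIM1+/D84G library was above every WT library for 23.0% of them, and below for 23.0%. The share of other gene pairs without overlap was not counted. The exact permutation test takes no account of the replicate numbers, and whether these pair the libraries is not known. Permuted within replicate numbers, the smallest two-sided p that 16 assignments allow is 0.125, reached by 11 of the 19 ratios, so that no ratio can pass. All exact permutation p values given for ratios are without such pairing.

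Lum over Dcn was 0.155, 0.143, 0.132 and 0.154 in STIM1+/D84G libraries, against 0.0864, 0.0997, 0.0849 and 0.0715 in WT libraries, a log2 difference of 0.78 (exact permutation p = 0.029). Bgn over Dcn was 0.206, 0.192, 0.224 and 0.205 in STIM1+/D84G libraries, against 0.158, 0.150, 0.163 and 0.137 in WT libraries, a log2 difference of 0.45 (exact permutation p = 0.029). Lum and Bgn counts were thus higher per Dcn count in each mutant mouse. Aspn over Dcn overlapped, with a log2 difference of 0.22 (exact permutation p = 0.171), and Fmod over Lum was 2.87 ± 0.469 in STIM1+/D84G muscle and 5.76 ± 1.75 in WT muscle (SD, n = 4 each), a log2 difference of -0.97.

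The lysyl oxidase relatives among the 44, Loxl1, Loxl2 and Loxl3, were lower per Lox count, but none of these ratios passed after adjustment. Loxl1 over Lox was 1.90, 1.82, 1.82 and 1.86 in STIM1+/D84G libraries, against 2.20, 3.51, 2.78 and 2.17 in WT libraries, a log2 difference of -0.49 (exact permutation p = 0.029). Loxl3 over Lox was 0.310, 0.288, 0.312 and 0.304 in STIM1+/D84G libraries, against 0.564, 0.596, 0.542 and 0.447 in WT libraries, a log2 difference of -0.81 (exact permutation p = 0.029). The ratios were nearly the same in all 4 mutant mice, with an SD of 0.0380 for Loxl1 over Lox and 0.0108 for Loxl3 over Lox. Loxl2 over Lox differed by -0.56 without overlap.

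Other pairs overlapped. Ctgf over Cyr61 was 1.69 ± 0.452 in STIM1+/D84G muscle and 1.39 ± 0.218 in WT muscle (SD, n = 4 each), Nid2 over Nid1 0.153 ± 0.0197 in STIM1+/D84G muscle and 0.155 ± 0.0283 in WT muscle, and Thbs4 over Comp 8.34 ± 1.46 in STIM1+/D84G muscle and 7.91 ± 1.87 in WT muscle. Tnc over Tnxb and Sparcl1 over Sparc each had an exact permutation p of 0.057 before adjustment, with log2 differences of 0.61 and -0.38.

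**Figure D3:**
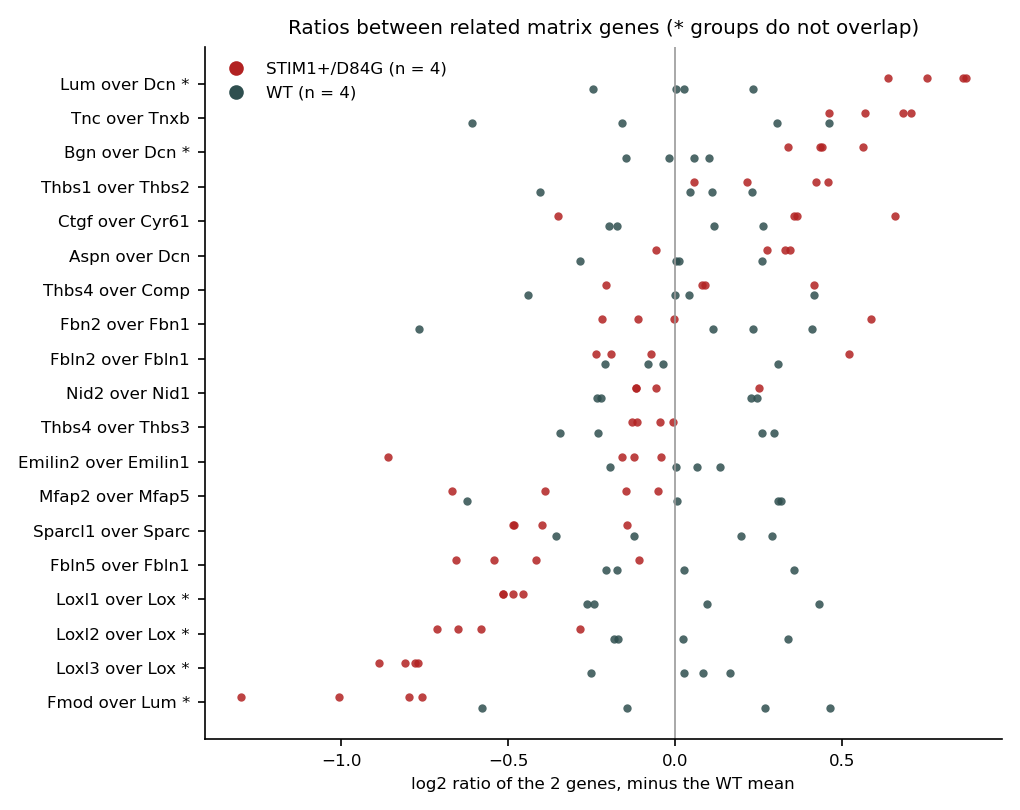
Log2 ratio of the counts of 2 related genes within each library, minus the WT mean of that ratio, for 19 pairs ordered by the difference between genotypes, 1 point per mouse. An asterisk marks the 6 pairs without overlap, from Lum over Dcn at 0.78 to Fmod over Lum at -0.97.

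Levels of different genes were compared as normalized counts per kilobase of the union of annotated exons. On this scale Dcn had the highest level in STIM1+/D84G muscle, at 2861 ± 178, against 1812 ± 195 in WT muscle (SD, n = 4 each). Thbs4 followed in STIM1+/D84G muscle at 2239 ± 158, against 1169.6 ± 305 in WT muscle, then Sparc at 2193 ± 77.7, against 1674 ± 356. Thbs4 and Sparc did not differ from each other in STIM1+/D84G muscle beyond their spread, nor did Sparcl1 and Dcn, the highest in WT muscle, where Sparcl1 stood at 1939 ± 161. The order depended on the length used. Per kilobase of the longest transcript Sparc and Dcn were the highest in both genotypes, Sparc at 3612 ± 128 in STIM1+/D84G muscle and 2757 ± 587 in WT muscle and Dcn at 3559 ± 222 in STIM1+/D84G muscle and 2255 ± 243 in WT muscle, gaps within their spread, and Thbs4 at 2303 ± 162 in STIM1+/D84G muscle lay below both. With either length the 5 highest genes were the same in both genotypes (Dcn, Thbs4, Sparc, Fmod and Sparcl1), and by the exon union they made up 50.4% ± 1.44 of the per-kilobase sum of the 44 genes in STIM1+/D84G muscle and 54.0% ± 2.10 in WT muscle.

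Shares within the 44 shifted with the unequal fold changes. Sparcl1, whose log2 fold change was 0.03, made up 8.80% ± 1.13 of the per-kilobase sum in STIM1+/D84G muscle and 13% ± 1.98 in WT muscle (SD, n = 4 each). Lum made up 4.41% ± 0.367 in STIM1+/D84G muscle and 2.45% ± 0.291 in WT muscle, and had rank 6 in STIM1+/D84G, against rank 10 in WT (8 against 14 by the longest transcript). Fn1 made up 3.70% ± 0.461 in STIM1+/D84G muscle and 2.32% ± 0.189 in WT muscle.

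**Figure D4:**
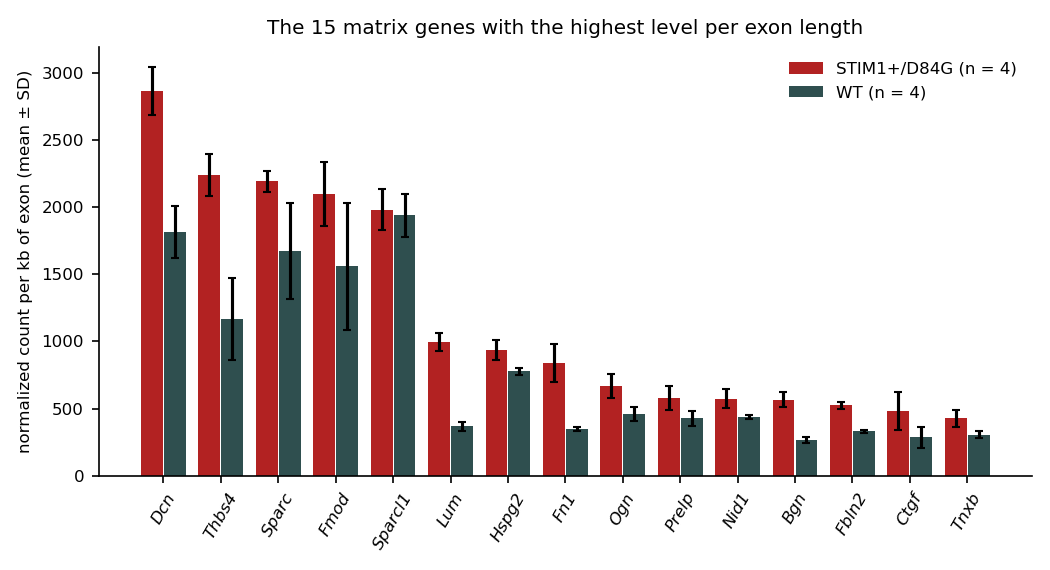
Normalized counts per kilobase of exon (mean with SD, n = 4 mice each) for the 15 matrix genes with the highest level in STIM1+/D84G muscle. On this length Dcn leads in STIM1+/D84G at 2861 and Sparcl1 in WT at 1939; by the longest transcript Sparc and Dcn are the highest in both, within their spread of each other.

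The 44 genes together took 0.425% ± 0.0372 of all counts in STIM1+/D84G muscle and 0.221% ± 0.0182 in WT muscle (SD, n = 4 each). None was among the 50 most abundant genes, and without those 50 the shares were 0.751% ± 0.0524 in STIM1+/D84G muscle and 0.458% ± 0.0390 in WT muscle. Summed counts of the 44 were 103891 to 122315 in STIM1+/D84G mice, against 70020.1 to 81297 in WT mice. The 10 myofiber markers summed to 4304146 to 4869100.5 in STIM1+/D84G mice, against 7275529 to 7671503 in WT mice. They went both ways, with 6 lower (such as the fast myosin Myh4 at -1.05) and 3 higher (the myosins Myh7 at 1.31 and Myh1 at 1.04, and myoglobin, Mb, at 0.35).

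Mice within a genotype also differed. STIM1+/D84G mouse 1 was the lowest of its group for 26 of 44 genes, and STIM1+/D84G mouse 3 the highest for 20. Of the WT mice, mouse 1 was the highest for 22 genes and mouse 2 the lowest for 16. Between the libraries that share a number in their column names, 41 of 44 genes were higher in STIM1+/D84G mouse 1 than in WT mice 1 and 2, with a median log2 difference of 0.56, and 42 were higher in STIM1+/D84G mice 2 to 4 than in WT mice 3 and 4, with a median of 0.69. All 36 called genes were higher in both sets, but they were called from these same libraries, so this is no separate evidence. The first set holds 1 mutant mouse, and these counts were not set beside those of all genes.

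Markers of fibro-adipogenic progenitors and macrophages moved with the matrix genes. None of the markers is one of the 44, but these lists too were chosen with earlier results of these data known. Of 10 fibro-adipogenic progenitor markers 9 were higher and 0 lower, with summed counts of 43696 to 60899 in STIM1+/D84G mice, against 31887 to 37161 in WT mice. Most of these sums was 1 marker, Gsn, at 42974 ± 6306 in STIM1+/D84G muscle and 27140.4 ± 2749 in WT muscle (SD, n = 4 each). The receptor Pdgfra that defines these cells counted 1736 ± 259 in STIM1+/D84G muscle and 1003 ± 89.3 in WT muscle. All 9 macrophage markers measured were higher, summing to 6430.0 to 11172 in STIM1+/D84G mice, against 2404 to 2999 in WT mice. Of 9 endothelial markers 0 were higher and 2 lower (8926 to 10569.7 in STIM1+/D84G mice, against 9884 to 11576 in WT mice), and of 10 smooth muscle and pericyte markers 2 were higher and 1 lower (23221 to 26935 in STIM1+/D84G mice, against 29261 to 30916 in WT mice). The gap between the smooth muscle and pericyte sums came from 1 marker, the potassium channel subunit Abcc9, which counted 8551 ± 392 in STIM1+/D84G muscle and 14138 ± 644 in WT muscle (SD, n = 4 each). The other 9 markers summed to 14573 to 18318 in STIM1+/D84G mice, against 15681 to 16966 in WT mice, and overlapped. Schwann cell markers were higher in 2 of 8 cases, adipocyte markers in 1 of 7 and satellite cell markers in 3 of 7, beside 25.0% of all genes. No marker was at 0, and the part of a change in cell numbers was not tested.

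The 44 genes were set beside 7 lists of related genes, none of which shares a gene with them. The lists were chosen with earlier results of these data known, so their counts are no separate evidence. Over the 156 measured genes of these lists, 84 were higher and 16 lower, with a median log2 fold change of 0.38, against 25.0% higher and 24.4% lower over all genes.

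Other proteoglycans rose in 7 of 14 cases and fell in 0. Hapln4, a link protein that ties hyaluronan to proteoglycans, counted 18.3 ± 3.61 in STIM1+/D84G muscle and 3.25 ± 1.81 in WT muscle (SD, n = 4 each; log2 fold change 2.64 ± 0.48, limma, adjusted p = 9.04e-04). Spock2 (testican 2) counted 1102 ± 111 in STIM1+/D84G muscle and 396 ± 108 in WT muscle (1.52 ± 0.18, limma, adjusted p = 5.30e-05). The lubricant proteoglycan Prg4 rose by 0.86 ± 0.24 (limma, adjusted p = 0.0125) and chondroadherin (Chad) by 0.76 ± 0.24 (limma, adjusted p = 0.0216). The lowest STIM1+/D84G mouse for Prg4 (755) was nearly level with the highest WT mouse (750.1). For Chad the genotypes overlapped, with 808 in the lowest STIM1+/D84G mouse and 906 in the highest WT mouse.

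Other glycoproteins rose in 9 of 22 cases and fell in 2. The cartilage intermediate layer protein Cilp counted 5299.6 ± 297 in STIM1+/D84G muscle and 1257 ± 324 in WT muscle (SD, n = 4 each; 2.11 ± 0.15, limma, adjusted p = 1.40e-06), and spondin 2 (Spon2) and nephronectin (Npnt) rose by 1.86 and 1.59. Aebp1, which encodes the collagen-binding protein ACLP, fell by 1.09, to 6369 ± 570.3 in STIM1+/D84G muscle, against 13574 ± 1854 in WT muscle (limma, adjusted p = 4.75e-06). Other elastic fiber genes rose in 9 of 15 cases and fell in 2, led by Fbln7 at 1.67 and Ltbp2 at 1.53, with Emilin3 at 31.6 ± 8.06 in STIM1+/D84G muscle and 13.3 ± 3.51 in WT muscle, and Mfap3l at a log2 fold change of -0.25.

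Enzymes that modify collagen rose in 18 of 25 cases and fell in 1. P4ha3, a prolyl 4-hydroxylase subunit, was low in both genotypes, with 17.8 ± 5.61 in STIM1+/D84G muscle and 3.03 ± 1.39 in WT muscle (SD, n = 4 each; 2.59 ± 0.48, limma, adjusted p = 0.00102). The prolyl 3-hydroxylase Leprel1 rose by 1.35, the procollagen protease Adamts14 counted 104 ± 19.6 in STIM1+/D84G muscle and 44.6 ± 9.30 in WT muscle, and the collagen galactosyltransferase Colgalt1 fell by 0.20. Collagen chains rose in 16 of 24 cases and fell in 1, with Col3a1 at 1.40, Col8a1 at 1.29, Col5a2 at 1.13 and Col22a1, a chain of the muscle-tendon junction, at -0.48.

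Receptors for these matrix proteins rose in 17 of 25 cases and fell in 3. The hyaluronan receptor Cd44 counted 570.0 ± 11.7 in STIM1+/D84G muscle and 220.4 ± 22.0 in WT muscle (SD, n = 4 each; 1.38 ± 0.07, limma, adjusted p = 2.56e-07), the urokinase receptor Plaur rose by 1.07 and syndecan 2 (Sdc2) by 1.02, and the vitronectin receptor subunit Itgb5 fell by 0.50. Enzymes of glycosaminoglycan synthesis went both ways, with 8 of 31 higher and 7 lower, shares near those of all genes, but these counts turned on the scaling. The glycosaminoglycan synthesis enzymes had 13 higher and 6 lower when libraries were scaled without the 50 most abundant genes (beside 34.5% of all genes higher and 14.5% lower), and 23 higher and 1 lower when they were scaled to the total (beside 61.4% and 4.93%). The chondroitin 6-sulfotransferase Chst3 rose by 1.49, Chpf by 0.86 and Dsel by 0.73, while Xylt1, which attaches the first sugar of the chain to the core protein, fell by 1.13 to 75.9 ± 5.31 in STIM1+/D84G muscle, against 169 ± 35.4 in WT muscle (limma, adjusted p = 7.27e-05).

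**Figure D5:**
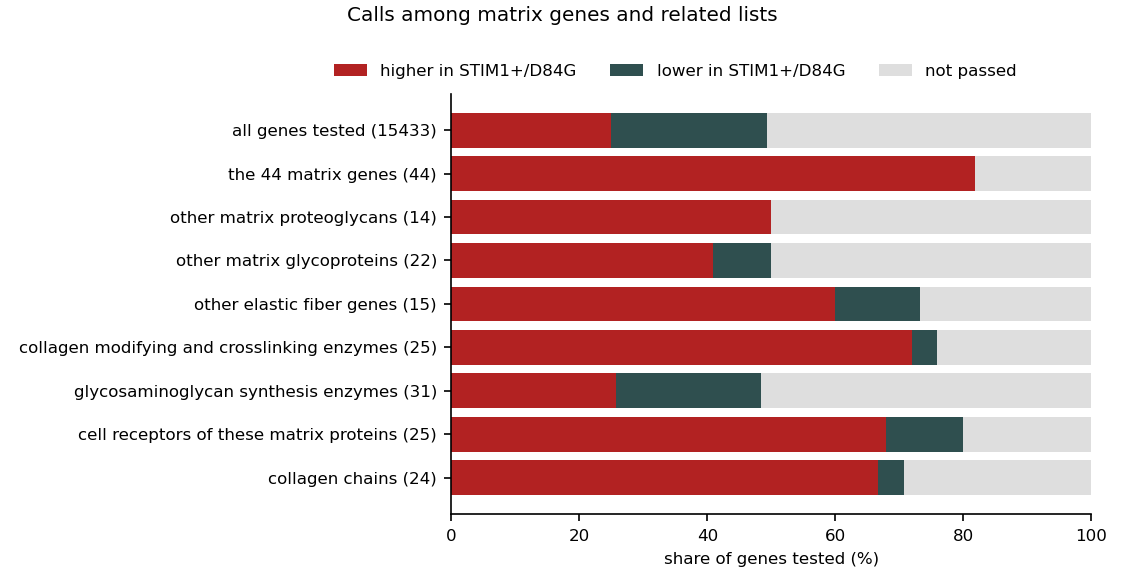
Share of genes called higher, called lower and not passed, for all 15433 genes, the 44 matrix genes and 7 lists of related genes, with the number tested in parentheses. The 44 matrix genes have 36 higher and 0 lower, and the glycosaminoglycan synthesis enzymes, with 8 higher and 7 lower of 31, are near the shares of all genes (23 higher and 1 lower when libraries were scaled to the total).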

How the data were processed

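RNA-Seq libraries of GST muscle from 4 STIM1+/D84G and 4 WT mice were analyzed from the deposited table, with groups taken from the sample labels. The deposited signal values are read counts per gene that the authors divided by 1 size factor per library. They are not scaled by length, although the table is named after RPKM. Whole reads were recovered for 100.0% of values within a tolerance of 0.01, and mm10 is the build in the labels. The aligner, counter and annotation version are not given in the sources used here. The study names a stranded Kapa kit and the labels a SMARTer kit. Columns of the authors' own comparison (fold change, its log2, standard error, statistic, p value and adjusted p value, in the form of DESeq2 output) were not used.

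The members and all gene lists were chosen with earlier results of these data known. Differences were fitted on a log2 scale after a pseudocount of 0.1 was added, using limma (version 3.58.1, R version 4.3.3) with a mean-variance trend. A minimum mean of 0.5 removed no gene, and the threshold was an adjusted p of 0.05 (Benjamini-Hochberg). Ratios were compared by an exact permutation test. As alternatives the pseudocount was set to 1 or 0.01, the filter was dropped or raised to 10, libraries were rescaled (median of ratios, total, total without the 50 most abundant genes, quantiles), and each library was left out. The other alternatives were a replicate block, the number in the column names as a term, edgeR 4.0.16 and DESeq2 1.42.0 on recovered reads and, chosen after seeing the data, only the 5 libraries sharing 1 number. Libraries of 1 replicate number in both genotypes correlated at 0.213, 0.161, 0.150 and 0.123 over 10155 genes after group means were removed. Some libraries of unlike replicate number correlated as well or better. WT mouse 2 and STIM1+/D84G mouse 1 correlated at 0.371, WT mouse 4 and STIM1+/D84G mouse 3 at 0.222, and WT mouse 3 and STIM1+/D84G mouse 4 at 0.188. Each of these pairs also shares its column-name number. The correlations therefore do not show that the replicate number pairs the libraries, and it was used as a block only in alternatives. Across the column-name numbers STIM1+/D84G mouse 1 correlated at -0.278 and -0.248 with WT mice 3 and 4. WT mouse 2 correlated at -0.299 and -0.277 with STIM1+/D84G mice 3 and 4. STIM1+/D84G mouse 2 went the other way, at 0.161 with WT mouse 2 and -0.018 and -0.054 with WT mice 3 and 4. The main fit had no term for the column-name number. With it as a term 36 members were higher and 0 lower. Of the related lists, up to 4 genes each were named by size of fold change among those past the threshold, with the largest of each direction; all members, markers and Stim1 could be named. Coordinates and exon lengths come from GENCODE vM21 (15289 of 15433 genes matched), and promoters from RefSeq. Python 3.11.15, pandas 2.3.3, numpy 2.4.6, scipy 1.17.1 and matplotlib 3.10.9 were used for shares and plots.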

Additional observations from a re-analysis of the deposited data

Results flagged for a closer look

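Of 90 gene-by-genotype groups looked at, 8 had 1 mouse whose gap to the next was a large part of the range of its group, by Dixon's 95% limit, which chance passes in about 1 of 20 groups. In STIM1+/D84G muscle these were Postn with 1469.6 and Lum with 2683, each high in mouse 4, Aspn with 560.1, Thbs3 with 342 and Fbln1 with 316, each low in mouse 1, and Ctgf with 779.7, low in mouse 4. In WT muscle they were Fbn1 with 2424, low in mouse 3, and Fbn2 with 4.57, low in mouse 1. Ctgf was still called without STIM1+/D84G mouse 4. Each of the 8 genes kept its side of the threshold without the mouse named here.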

How the results depend on the processing

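Of the 36 genes called higher, 33 passed in all 21 alternatives; the exceptions were Cyr61, Ctgf and, under quantile scaling only, Loxl3. The number of members called higher was 34 to 43, and 34 to 37 with single libraries left out. With the replicate block 37 members were higher and 0 lower, with Emilin2 added at an adjusted p of 0.0328 by limma, and no other member changed its call. Members called lower numbered 1 (Vtn) under quantile scaling and 1 (Vtn) without WT replicate 4, a range of 0 to 1 with single libraries left out. The members' median log2 fold change was 0.6 to 0.68 with single libraries left out, 0.77 when libraries were scaled without the 50 most abundant genes and 1.0 when they were scaled to the total, settings under which the median of all genes was 0.14 and 0.36. Without the 50 most abundant genes 34.5% of all genes were higher and 14.5% lower. The related lists had 98 genes higher and 9 lower when scaled without those 50, 123 higher and 3 lower when scaled to the total, and 76 to 85 higher and 13 to 16 lower with single libraries left out. Members that had not passed changed sign in places: Fbn2 to -0.07 with quantile scaling, Eln to -0.16 in the 5 libraries that share a number (chosen after seeing the data), -0.07 with that number as a term, -0.04 without D84G replicate 3 and -0.06 without WT replicate 2 (-0.06 to 0.30 with single libraries left out), Sparcl1 to -0.02 without D84G replicate 1 and to -0.02 without WT replicate 4 (-0.02 to 0.07), and Vtn to 0.20 when scaled to the total, where it was called higher. The share of all counts was 0.412% to 0.438% in STIM1+/D84G and 0.215% to 0.227% in WT with single libraries left out, and 0.751% and 0.458% without the 50 most abundant genes. By the longest transcript in place of the exon union, Dcn made up 13% of the per-kilobase sum in STIM1+/D84G, and Sparc 13.2% in STIM1+/D84G and 15.1% in WT. The cause of these shifts was not tested. Permuting the ratios within replicate numbers, leaving out Abcc9 and counting motifs by gene were chosen after seeing the data. Ratios with a library left out cannot reach the threshold and were taken as values. Spans of 25 of the 44 genes overlap another annotated gene, 9 of them a protein-coding gene, which for 1 (Pcolce) is on the same strand. Spans include introns, and whether exons overlap was not checked. Reads in shared exons could not be told apart on the same strand, or on opposite strands if strand was not counted.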
